A study of Homo sapiens with 18 samples.

Results

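Negative feedback on mitogen-activated protein kinase (MAPK) signalling was followed through 10 genes: the MAPK phosphatases DUSP1, DUSP2, DUSP4, DUSP5, DUSP6, DUSP8 and DUSP10, and the pathway inhibitors SPRY2, SPRY4 and SPRED1. They were chosen by gene symbol from the 62710 genes of the count table, and all 10 passed the low-count filter that left 17030 genes for testing. The cells were MDA-MB-231, an established human triple-negative breast cancer line, grown as spheroids of 2000 cells with 100000 cells per sample. The 18 libraries form 6 groups of 3. Control spheroids, labelled Wildtype, and MMP14-targeted spheroids, labelled MMP14-KO, were each taken after 5 days of formation in hanging droplets, or 24 h or 48 h after embedding in a collagen hydrogel. Spheroids in collagen were freed with Type 7 collagenase at 2 mg/ml and 37 °C, whereas droplet spheroids were washed off the plate with no digestion stated, so that matrix, elapsed time and digestion differ together between these samples and cannot be told apart. The labels do not say whether the targeted cells are 1 clone or a pool, nor whether replicates are separate cultures, and p-values then measure the spread between these samples, which may be technical.

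MAPKs are switched on by paired phosphorylation of a threonine and a tyrosine, and the dual-specificity phosphatases of this family remove both phosphates. Several of these phosphatases are transcribed in response to the kinases they act on, which closes a feedback loop. DUSP5 in the nucleus and DUSP6 in the cytoplasm act mainly on ERK, DUSP8 and DUSP10 act mainly on the stress kinases JNK and p38, and DUSP1, DUSP2 and DUSP4 are nuclear enzymes with broader reach. Sprouty and SPRED proteins act further upstream, where they restrain the passage of receptor signals through RAS to RAF, and SPRED1 brings the RAS inhibitor neurofibromin to the membrane.

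The promoter sequences of DUSP1 and DUSP8 are shown because these are the members with a full cyclic-AMP response element (CRE) in the RefSeq promoter table, and because DUSP1 had the largest fold change of the 10 between collagen and droplets at both times in both genotypes. Both are the 250 bases before the RefSeq transcription start on GRCh38.p14, 5′ to 3′ on the minus strand, with CRE and CRE-core letters in capitals. The first covers chr5:172771196-172771445 and the second covers chr11:1572272-1572521.
DUSP1: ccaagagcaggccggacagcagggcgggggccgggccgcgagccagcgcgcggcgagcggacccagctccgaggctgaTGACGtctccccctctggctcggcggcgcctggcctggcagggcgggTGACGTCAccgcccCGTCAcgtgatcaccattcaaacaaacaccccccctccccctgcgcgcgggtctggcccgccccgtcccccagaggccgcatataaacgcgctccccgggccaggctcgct
DUSP8: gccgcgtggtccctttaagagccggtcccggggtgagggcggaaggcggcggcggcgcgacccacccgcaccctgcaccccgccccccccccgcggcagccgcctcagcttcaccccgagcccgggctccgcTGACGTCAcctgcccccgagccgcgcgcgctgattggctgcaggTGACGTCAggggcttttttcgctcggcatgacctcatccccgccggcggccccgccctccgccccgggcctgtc

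The full CRE, TGACGTCA, matched once in DUSP1, at 125 to 118 bases before the start, and at 2 places in DUSP8, at 118 to 111 and 74 to 67 bases. It was found in 1.65% of the 35116 windows of this length in the table, either strand counted. The table held 8 of the 10 members in 11 windows. The shorter core TGACG or its reverse complement stood alone at 2 further places in DUSP1, at 172 to 168 and 111 to 107 bases, and was found in 21.2% of all windows. It also matched once in SPRY4 and once in 1 of the SPRY2 windows. The TATA box TATAAA, found in 10.7% of windows, matched in DUSP1 at 30 to 25 bases before the start, and the E-box CACGTG, found in 6.34%, matched in DUSP1 at 108 to 103 bases, where it overlaps the core, and in DUSP2 at 113 to 108 bases. The core of NF-Y sites, ATTGG, matched at 4 places in a DUSP10 window, once in DUSP6 and once in DUSP8, against 32% of all windows, and the ETS core CCGGAA, found in 14.5%, matched once in SPRY2. The AP-1 motif TGANTCA, in 6.57% of windows, and the serum response CArG box, in 1.16%, matched in no member window. These are matches of letters, not measured binding.

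**Figure D1:**
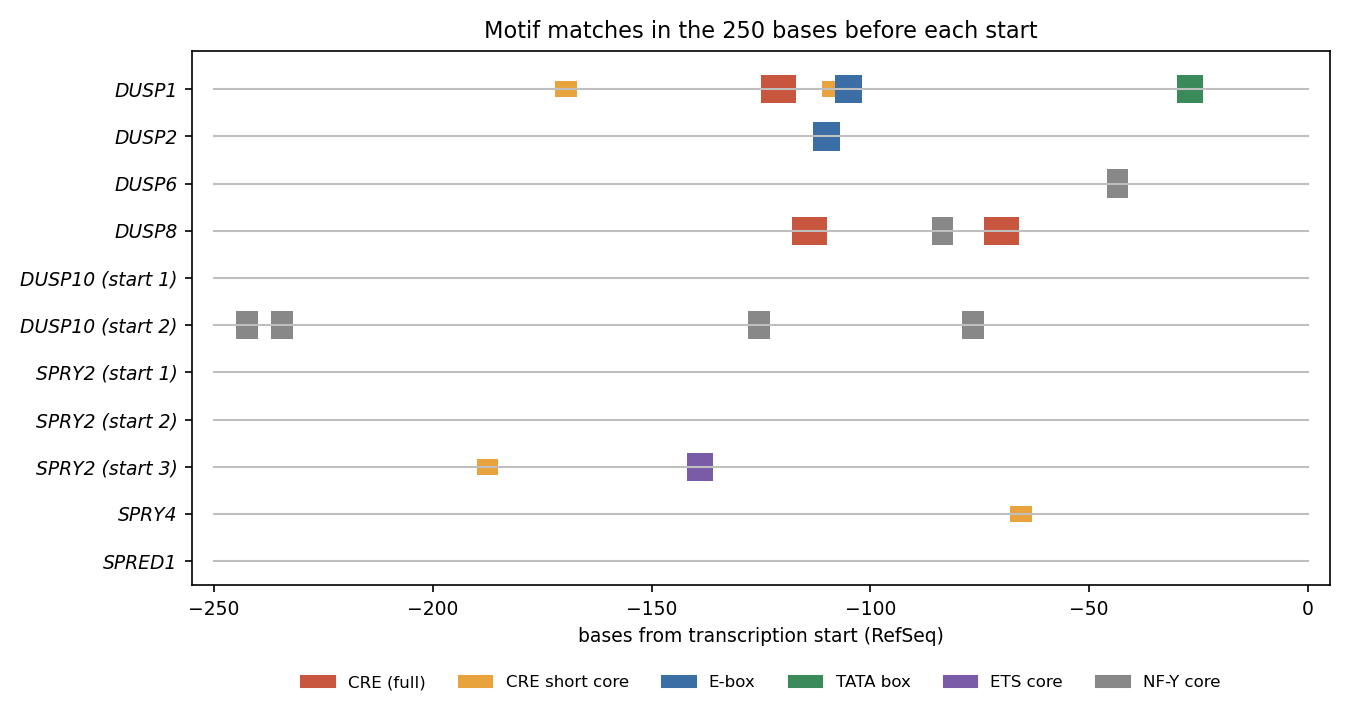
Motif matches on either strand in the 250 bases before each RefSeq transcription start of the 8 members in the table (11 windows, x axis in bases from the start). DUSP1 and DUSP8 are the members with a full CRE, and DUSP1 is the member with a TATA box.

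Total counts per library ranged from 19819401 to 33352163. MMP14, the targeted gene, stood at 1284 to 2250 CPM (counts scaled to library size with TMM factors) in the 9 control libraries and at 137.9 to 165.6 CPM in the 9 targeted libraries, without overlap. Mesenchymal markers of this line were abundant (VIM at 1930 to 3834 CPM), and their summed level was 4184 to 5050 CPM in droplets and 6484 to 7258 CPM in collagen. Of the 7 luminal epithelial markers, 4 (ESR1, PGR, FOXA1 and CDH1) stayed under 1 CPM in every library, and the list summed to 454.4 to 560.2 CPM, most of it from KRT8. Of the 5 leukocyte markers, 2, CD3E among them, were at 0 in every library, and the other 3 passed the low-count filter. The leukocyte list summed to 90.49 to 135.3 CPM. The 3 endothelial markers summed to 8.196 to 34.34 CPM and the 5 fibroblast markers to 32.61 to 59.05 CPM. In bulk RNA, fewer cells of a kind and less RNA per cell cannot be told apart.

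DUSP4 and DUSP6 were the most abundant members in droplets. Scaled per kilobase of exon, DUSP4 stood at 175.6 ± 4.28 CPM per kb and DUSP6 at 153.2 ± 9.26 CPM per kb in control droplets (SD, n = 3), and DUSP5 followed at 51.3 ± 1.68 CPM per kb. SPRY2 (30.2 ± 1.55), SPRY4 (25.2 ± 2.29) and SPRED1 (21.6 ± 1.95 CPM per kb) were lower, and neighbours in this order did not overlap between libraries. DUSP1 came next at 11.0 ± 1.28 CPM per kb and DUSP10 at 5.55 ± 0.258 CPM per kb. SPRY2 and SPRY4 did overlap in control droplets when scaled by the length of the longest coding transcript (33.8 and 33.5 CPM per kb).

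DUSP8 at 0.312 ± 0.115 CPM per kb and DUSP2 at 0.102 ± 0.0131 CPM per kb were near the floor of detection, with 12 to 67 and 2 to 21 reads per library over the series. DUSP1 was 7th in this order in droplets of both genotypes and 1st at 24 h in collagen, at 232 ± 32.1 CPM per kb in control and 215 ± 23.9 CPM per kb in targeted spheroids, where its libraries overlapped those of DUSP6. It was 3rd at 48 h. As a share of the summed per-kb level of the 10 members, DUSP1 made up 2.32% in control droplets, 32.95% at 24 h and 21.6% at 48 h, and 2.35%, 29.04% and 19.4% in targeted spheroids. With the length of the longest coding transcript in place of all exons, DUSP6 came before DUSP1 in targeted spheroids at 24 h and DUSP4 before DUSP6 at 48 h in both genotypes, so these neighbours have no fixed order.

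**Figure D2:**
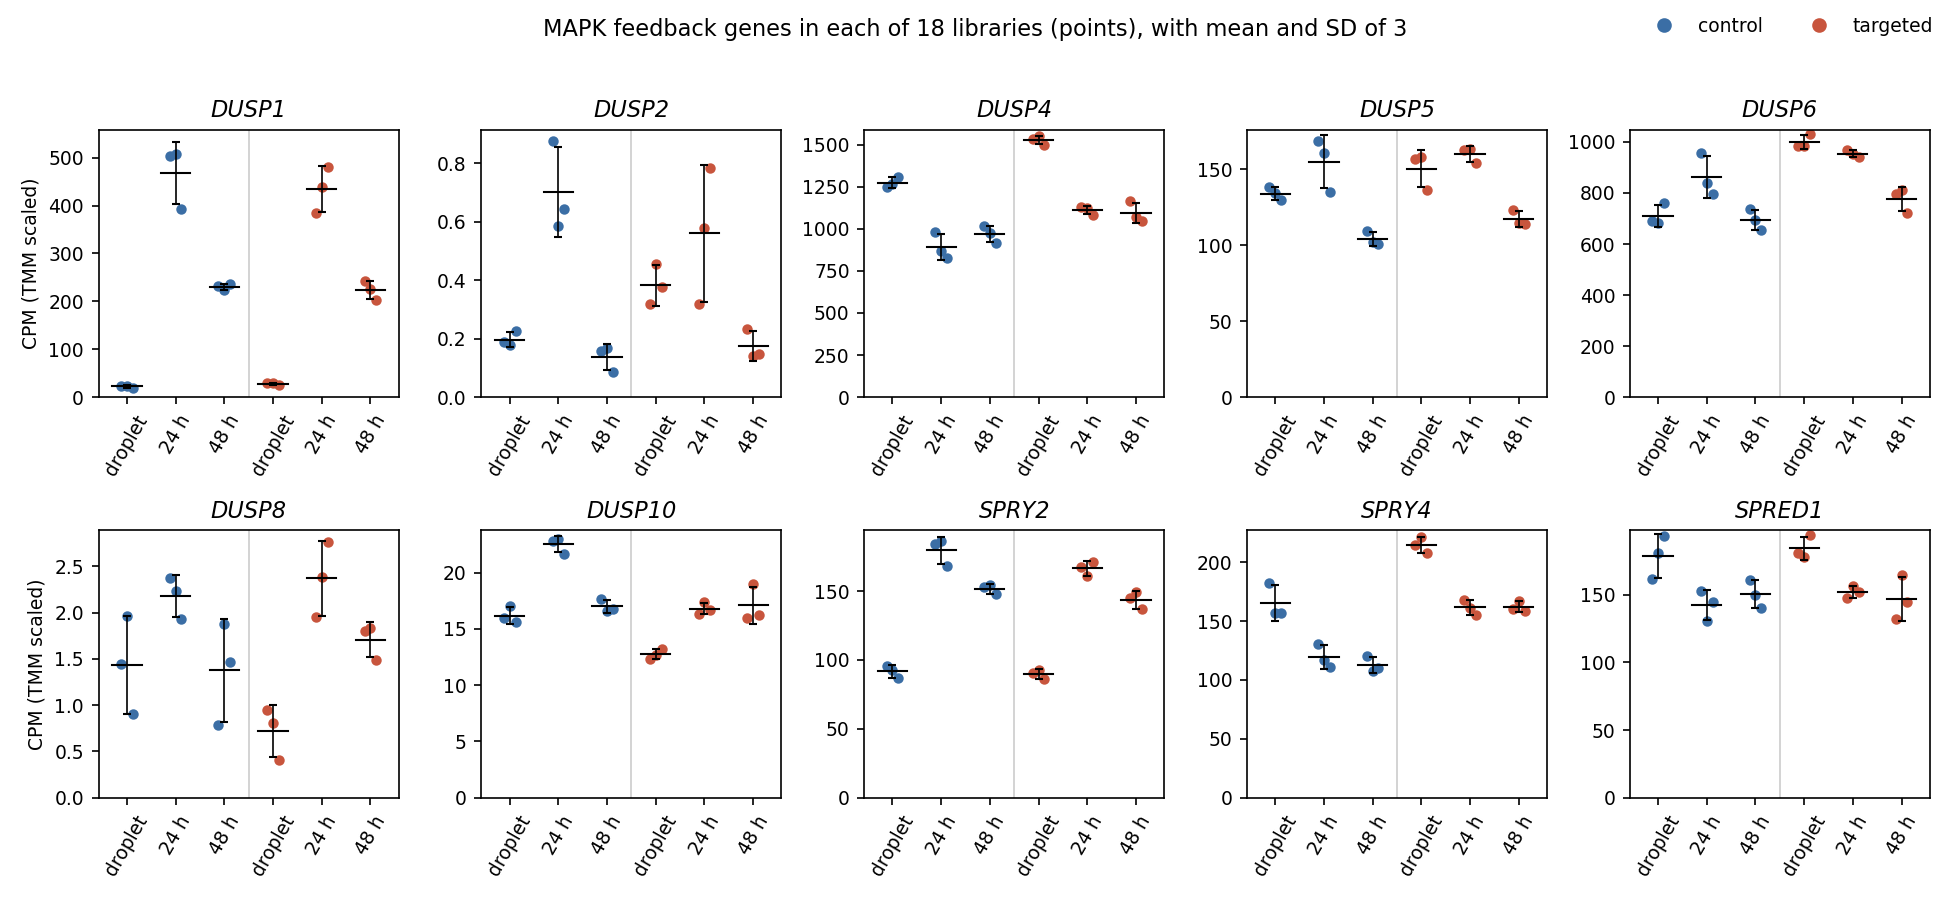
CPM (TMM scaled, linear axes from 0) of the 10 members in every library, with a point per library, the mean as a bar and the SD of 3 libraries as the error bar, blue for control and red for targeted spheroids. DUSP1 libraries in collagen, at 203 to 507 CPM, all lie above those in droplets, at 19.3 to 29.8 CPM.

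The first comparison asked how the feedback genes of each genotype differ between spheroids in collagen and in droplets. In collagen, DUSP1 and SPRY2 rose at both times in both genotypes, while DUSP4, SPRY4 and SPRED1 fell at both times in both. DUSP1 was 21.1 times its droplet level at 24 h in control spheroids and SPRY2 was 1.96 times its own. DUSP5 and DUSP6 moved by less than 1.3 times, and the low-count genes DUSP2 and DUSP8 gave wide intervals. By edgeR's quasi-likelihood test with Benjamini-Hochberg adjustment over all 17030 genes, 9 of 10 members passed at 24 h in control spheroids (6 higher, 3 lower), where 56.5% of all genes tested passed (27.8% higher, 28.7% lower). In targeted spheroids at 24 h, 7 passed (4 higher, 3 lower) against 51.1% of all genes (25.5% higher, 25.7% lower).

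At 48 h, 6 members passed in control spheroids (2 higher, 4 lower) against 55.2% of all genes (27.7% higher, 27.5% lower), and 9 passed in targeted spheroids (4 higher, 5 lower) against 49.4% (25.8% higher, 23.6% lower). The median log2 fold change of the 10 members at 24 h was 0.38 in control and 0.25 in targeted spheroids, and at 48 h it was -0.16 and -0.34, while that of all genes tested lay between 0.00 and 0.02. Within a genotype, the 24 h and 48 h comparisons share the droplet libraries.

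DUSP1, an immediate-early gene whose product dephosphorylates JNK, p38 and ERK, stood at 24.0, 23.4 and 19.3 CPM in the 3 control droplet libraries, at 504, 507 and 394 CPM at 24 h, and at 231, 223 and 236 CPM at 48 h. The targeted libraries gave 29.8, 28.9 and 25.0 CPM in droplets, at 384, 438 and 480 CPM at 24 h, and at 242, 226 and 203 CPM at 48 h. Every collagen library was above every droplet library, and every 24 h library was above every 48 h library, in both genotypes. The log2 fold change at 24 h was 4.40 (SE 0.125, edgeR adjusted p = 1.36e-13) in control and 3.96 (SE 0.122, adjusted p = 6.74e-13) in targeted spheroids. At 48 h it was 3.37 (SE 0.122, adjusted p = 2.21e-12) and 3.01 (SE 0.119, adjusted p = 1.47e-11).

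DUSP1's span between its highest and lowest group mean, 4.39 on the log2 scale, ranked 43 among 17030 genes. From the group means, 46.6% of the 24 h rise was left at 48 h in control and 48.3% in targeted spheroids. Immediate-early and dissociation-induced genes moved with DUSP1: their 19 listed genes had a summed level of 3387 to 3837 CPM in droplet libraries, 7284 to 7789 CPM in 24 h libraries and 4776 to 5258 CPM in 48 h libraries. Of these 19, 16 were higher and 0 lower at 24 h in control spheroids, and 18 were higher and 0 lower in targeted spheroids, against the 27.8% and 25.5% of all genes that were higher. FOSB and FOS, AP-1 subunit genes, led them. At 48 h 15 were higher and 3 lower in control spheroids, and 15 higher and 0 lower in targeted spheroids, against 27.7% and 25.8% of all genes higher. Mitochondrially encoded genes held 0.971% to 2.65% of counts in droplets, 2.34% to 2.94% at 24 h and 2.88% to 4.18% at 48 h. The part of digestion in the DUSP1 result was not tested.

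DUSP2, a nuclear phosphatase known best from activated lymphocytes, gave 0.187, 0.178 and 0.226 CPM in control droplets, 0.876, 0.587 and 0.645 CPM at 24 h, and 0.157, 0.167 and 0.0863 CPM at 48 h, from 2 to 21 reads per library. Its targeted counterparts stood at 0.317, 0.455 and 0.376 CPM in droplets, 0.318, 0.577 and 0.785 CPM at 24 h, and 0.234, 0.141 and 0.149 CPM at 48 h. The 24 h libraries lay above the droplet libraries in control spheroids, while in targeted spheroids these groups overlapped. The rise at 24 h in control spheroids was 1.80 on the log2 scale (SE 0.405, edgeR adjusted p = 0.000629), and the value in targeted spheroids was 0.55 (95% interval -0.27 to 1.36). Tested directly, the 24 h responses of the genotypes differed by -1.25 in targeted minus control spheroids (SE 0.557, edgeR adjusted p = 0.173), which did not pass. At 48 h its values of -0.51 (adjusted p = 0.464) in control and -1.09 (adjusted p = 0.0503) in targeted spheroids did not pass, although the latter did with library-size scaling (0.0485) and without targeted 24 h replicate 1 (0.0404) or 3 (0.0479).

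The stress-kinase phosphatases DUSP8 and DUSP10 were low. DUSP8 gave 1.45, 1.96 and 0.903 CPM in control droplets, 2.38, 2.23 and 1.93 CPM at 24 h, and 0.783, 1.88 and 1.47 CPM at 48 h. Targeted spheroids held 0.951, 0.805 and 0.410 CPM in droplets, 1.96, 2.39 and 2.77 CPM at 24 h, and 1.80, 1.83 and 1.49 CPM at 48 h. The targeted droplet libraries lay below all targeted collagen libraries, and in control spheroids the droplet libraries overlapped both collagen groups. DUSP8 rose in targeted spheroids on the log2 scale by 1.72 at 24 h (SE 0.319, edgeR adjusted p = 0.000107) and 1.25 at 48 h (SE 0.330, adjusted p = 0.00328). In control spheroids its values were 0.59 (95% interval -0.05 to 1.24) and -0.07 (-0.75 to 0.60), which did not pass. The 24 h rise in control spheroids did pass without control droplet replicate 2 (0.91, edgeR adjusted p = 0.0274). Tested directly, the 24 h responses differed by 1.13 in targeted minus control spheroids (SE 0.437, edgeR adjusted p = 0.112). This did not pass, although it did without control droplet replicate 3 (0.0418).

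DUSP10 stood at 15.9, 17.0 and 15.6 CPM in control droplets, at 22.9, 23.0 and 21.7 CPM at 24 h, and at 17.7, 16.6 and 16.8 CPM at 48 h. The targeted libraries gave 12.4, 12.7 and 13.2 CPM in droplets, at 16.4, 17.4 and 16.7 CPM at 24 h, and at 16.0, 19.0 and 16.3 CPM at 48 h. In control spheroids the 24 h libraries stood above both other conditions, and in targeted spheroids both collagen groups stood above the droplets. On the log2 scale it rose at 24 h by 0.48 (SE 0.0740, edgeR adjusted p = 9.56e-06) in control and 0.40 (SE 0.0769, adjusted p = 0.000171) in targeted spheroids. At 48 h the change was 0.42 (SE 0.0773, adjusted p = 0.000112) in targeted spheroids and 0.07 (95% interval -0.09 to 0.24) in control.

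Among the phosphatases that act on ERK, DUSP4 fell in collagen. It stood at 1248, 1266 and 1309 CPM in control droplets, at 979, 869.9 and 828 CPM at 24 h, and at 1015, 975 and 917 CPM at 48 h. Its targeted counterparts stood at 1533, 1550.4 and 1501 CPM in droplets, at 1129, 1126 and 1082 CPM at 24 h, and at 1162, 1070.2 and 1048 CPM at 48 h. Droplet libraries lay above all collagen libraries of the same genotype. The log2 fold change was -0.51 (SE 0.0586, edgeR adjusted p = 1.29e-07) at 24 h and -0.40 (SE 0.0585) at 48 h in control, and -0.46 (SE 0.0585) and -0.48 (SE 0.0585) in targeted spheroids.

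DUSP5, the nuclear ERK phosphatase, stood at 138, 134 and 129.7 CPM in control droplets, at 169, 161 and 135 CPM at 24 h, and at 109.6, 102 and 101 CPM at 48 h. Targeted spheroids held 157, 158 and 137 CPM in droplets, at 163, 164 and 154 CPM at 24 h, and at 123, 115 and 114 CPM at 48 h. Its 48 h libraries were the lowest of each genotype, and its 24 h libraries overlapped those in droplets. It fell at 48 h by 0.36 on the log2 scale in both genotypes (SE 0.0698 in control and 0.0694 in targeted spheroids). At 24 h the change was 0.21 (SE 0.0690, edgeR adjusted p = 0.0130) in control spheroids, and it did not pass without control 24 h replicate 1 (adjusted p = 0.0907) or replicate 2 (adjusted p = 0.0603). In targeted spheroids it was 0.09 (95% interval -0.06 to 0.24).

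DUSP6, the cytoplasmic ERK phosphatase and a widely used readout of ERK activity, stood at 689, 681 and 759 CPM in control droplets, at 955, 838 and 798 CPM at 24 h, and at 735, 693 and 654 CPM at 48 h. The targeted libraries gave 984, 986 and 1029.9 CPM in droplets, at 969, 953 and 941 CPM at 24 h, and at 798, 810.2 and 722 CPM at 48 h. In control spheroids the 24 h libraries were highest, whereas in targeted spheroids the droplet libraries were. On the log2 scale it rose at 24 h in control spheroids by 0.28 (SE 0.0645, edgeR adjusted p = 0.000699) and fell at 48 h in targeted spheroids by 0.36 (SE 0.0645, adjusted p = 7.17e-05). The other 2 values, -0.03 at 48 h in control and -0.07 at 24 h in targeted spheroids, did not pass. An antisense gene, AC024909.2, with 160 to 561 reads per library, overlaps exons of DUSP6, and whether counting used strand is not given in the sources used here.

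Of the upstream inhibitors, SPRY2 rose and SPRY4 and SPRED1 fell. SPRY2 stood at 95.8, 92.7 and 86.5 CPM in control droplets, at 184, 186 and 169 CPM at 24 h, and at 153, 155 and 148 CPM at 48 h. Its targeted counterparts stood at 90.8, 92.9 and 85.9 CPM in droplets, at 167, 161 and 171 CPM at 24 h, and at 145, 149.6 and 137 CPM at 48 h. The 3 conditions did not overlap within a genotype. The log2 fold change was 0.97 (SE 0.0537, edgeR adjusted p = 2.16e-12) at 24 h and 0.73 (SE 0.0537) at 48 h in control, and 0.89 (SE 0.0536) and 0.68 (SE 0.0537) in targeted spheroids.

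SPRY4 stood at 183, 157 and 157 CPM in control droplets, at 131, 117 and 111 CPM at 24 h, and at 121, 108 and 109.8 CPM at 48 h. Targeted spheroids held 215, 222 and 208 CPM in droplets, at 168, 162 and 155 CPM at 24 h, and at 159.98, 167 and 159 CPM at 48 h. Droplet libraries were above collagen libraries in both genotypes, and the collagen times overlapped. The log2 fold change was -0.47 (SE 0.0650, edgeR adjusted p = 2.19e-06) at 24 h and -0.55 (SE 0.0653) at 48 h in control, and -0.41 (SE 0.0644) and -0.41 (SE 0.0645) in targeted spheroids.

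SPRED1 stood at 162, 181 and 194 CPM in control droplets, at 153, 131 and 145 CPM at 24 h, and at 161, 150.2 and 141 CPM at 48 h. The targeted libraries gave 181, 178 and 194 CPM in droplets, at 148, 157 and 152 CPM at 24 h, and at 132, 165 and 145 CPM at 48 h. Droplet libraries lay above the collagen libraries of the same genotype, in control at 48 h by less than 1 CPM. The log2 fold change was -0.32 (SE 0.0769, edgeR adjusted p = 0.00115) at 24 h in control, and -0.28 (SE 0.0769) at 24 h and -0.33 (SE 0.0771) at 48 h in targeted spheroids. At 48 h in control spheroids it was -0.25 (adjusted p = 0.00946), and it did not pass without control droplet replicate 3 (adjusted p = 0.0753) or control 48 h replicate 3 (adjusted p = 0.0659).

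**Figure D3:**
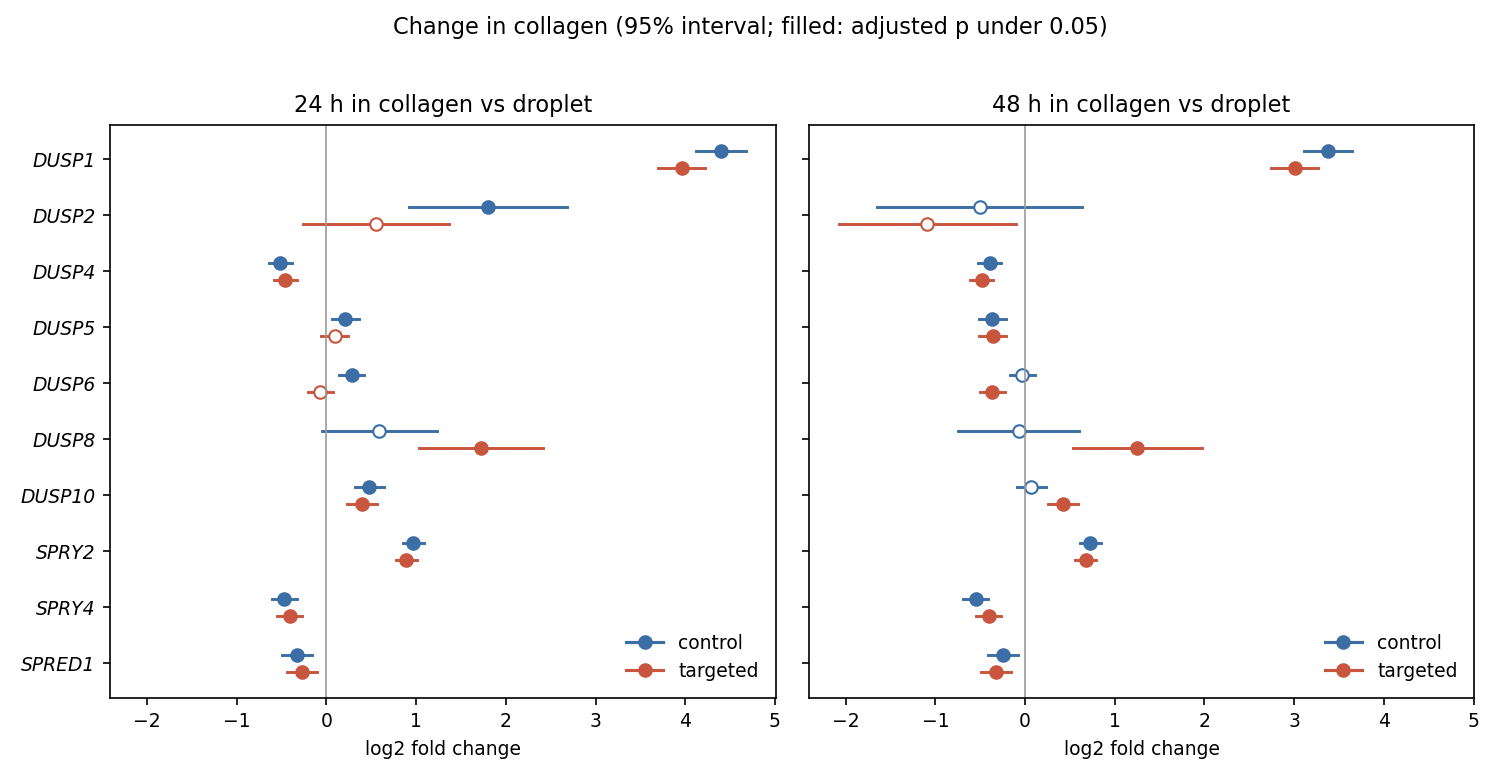
Log2 fold change of each member at 24 h (left) and 48 h (right) in collagen against droplets, in control (blue) and targeted (red) spheroids, with 95% intervals built from edgeR's F statistic, filled where the edgeR adjusted p is under 0.05. DUSP1 lies at 3.01 to 4.40, SPRY2 at 0.68 to 0.97, and DUSP4, SPRY4 and SPRED1 lie below 0 in every panel.

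Between 24 h and 48 h in collagen, members fell or did not pass, and none rose. In control spheroids 6 of 10 members were lower and 0 higher, against 6.88% of all genes lower and 6.32% higher (13.2% in either direction). In targeted spheroids 5 were lower and 0 higher, against 1.73% lower and 2.07% higher (3.81% in either direction). The members that passed in both genotypes were DUSP1, DUSP2, DUSP5, DUSP6 and SPRY2, and DUSP10 passed in control. The median log2 fold change of the 10 was -0.36 in control and -0.25 in targeted spheroids, and that of all genes was 0.00 in both.

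From 24 h to 48 h DUSP1 fell by 1.02 (SE 0.106, edgeR adjusted p = 1.18e-05) in control and by 0.95 (SE 0.106, adjusted p = 5.28e-05) in targeted spheroids on the log2 scale. DUSP5 fell by 0.57 (SE 0.0696) and 0.45 (SE 0.0696), and DUSP6 fell by 0.32 (SE 0.0645) and 0.30 (SE 0.0645). The wide fall of DUSP2 was 2.31 (SE 0.435) in control and 1.64 (SE 0.437) in targeted spheroids. SPRY2 fell by 0.24 (SE 0.0527, adjusted p = 0.00362) and 0.21 (SE 0.0530, adjusted p = 0.0256). DUSP10 fell by 0.40 (SE 0.0740, adjusted p = 0.000793) in control and stood at 0.02 (95% interval -0.14 to 0.19) in targeted spheroids.

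In targeted spheroids 3 of these calls rested on single libraries. DUSP6 did not pass without targeted 48 h replicate 3 (adjusted p = 0.0644), and SPRY2 did not pass without that library (0.102), targeted 24 h replicate 1 (0.0637) or replicate 3 (0.0995), or with only the pair of groups compared in the fit (0.0714). DUSP2 did not pass without any 1 of the 3 targeted 48 h libraries, targeted 24 h replicate 2 or 3, or control 24 h replicate 3 (adjusted p = 0.0502 to 0.185). The DUSP2 call was also lost without a low-count filter (edgeR adjusted p = 0.0791).

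The second comparison asked how MMP14-targeted spheroids differ from control spheroids in each condition. The MMP14 product is a metalloproteinase held in the cell membrane, with fibrillar collagen among its substrates. SPRY4 and DUSP4 were higher in targeted spheroids in all 3 conditions, DUSP6 was higher in droplets, and DUSP10 was lower in droplets and at 24 h. No member but DUSP8 differed by as much as 1.5 times among those that passed. In droplets 5 of 10 members passed (3 higher, 2 lower) against 17.4% of all genes (7.7% higher, 9.7% lower). At 24 h 3 passed (2 higher, 1 lower) against 29.4% (13.7% higher, 15.7% lower), and at 48 h 2 passed, both higher, against 29.5% (14.4% higher, 15.1% lower). The genotypes' libraries did not overlap for 6 members in droplets, 3 at 24 h and 3 at 48 h, against 34.9%, 45% and 40.3% of all genes. The members' median log2 difference was 0.21, 0.07 and 0.17, and that of all genes was 0.00 in each condition. Averaged over the 3 conditions, 5 members passed (4 higher, 1 lower) against 44.2% of all genes (21.1% higher, 23.1% lower).

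Several other measures also differed between genotypes. In droplets the mitochondrially encoded share of counts was 0.971% to 1.74% for targeted libraries against 2.10% to 2.65% for control, without overlap, whereas the genotypes overlapped at 24 h and 48 h. The summed endothelial markers were higher in targeted libraries without overlap in each condition, at 33.1 to 34.3 against 28.6 to 31.7 CPM in droplets, 20.9 to 24.2 against 8.20 to 19.95 CPM at 24 h and 19.7 to 29.9 against 9.07 to 15.3 CPM at 48 h. Of these 3 markers, CDH5 and VWF stayed under 1 CPM in every library, and PECAM1 made up most of the sum. PECAM1, the 1 marker of this list that was tested, passed as higher in targeted spheroids at 24 h and 48 h. Its log2 difference was 0.90 and 1.01 at these times, and 0.18 in droplets, where it did not pass. The summed fibroblast markers were lower in targeted droplets (32.6 to 38.7 against 41.05 to 50.6 CPM). They were higher in targeted libraries at 24 h (55.8 to 59.1 against 37.3 to 47.0 CPM) and 48 h (44.0 to 53.6 against 33.7 to 35.9 CPM). DCN stayed under 1 CPM, while COL1A1, COL3A1, PDGFRB and LUM each exceeded 1 CPM in at least 1 library. Of 4 fibroblast markers tested, 0 were higher and 2 lower in targeted droplets by edgeR. At 24 h 2 were higher and 1 lower, and at 48 h 2 were higher and 0 lower. Among the 3 leukocyte markers tested, 1 was higher and 0 lower in targeted spheroids in each condition, by edgeR. Of the 19 immediate-early and dissociation genes, 4 were higher and 0 lower in targeted droplets, 5 higher and 1 lower at 24 h, and 8 higher and 0 lower at 48 h, by edgeR. In the same order, 17.4%, 29.4% and 29.5% of all genes passed in either direction, and 7.7%, 13.7% and 14.4% were higher. The part of these measures in the genotype differences of the members was not tested.

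SPRY4 libraries of targeted spheroids lay above those of control spheroids in every condition. The group means were 215 ± 6.74 against 165 ± 15.01 CPM in droplets, 162 ± 6.37 against 119.6 ± 10.1 CPM at 24 h, and 162 ± 4.70 against 113 ± 6.89 CPM at 48 h (SD, n = 3 each). The log2 differences were 0.38 (SE 0.0643, edgeR adjusted p = 0.000212), 0.44 (SE 0.0651, adjusted p = 3.73e-05) and 0.52 (SE 0.0654, adjusted p = 5.05e-06). The change of this difference from droplets was 0.06 at 24 h and 0.14 at 48 h, and neither passed. SPRY4-AS1, an antisense gene within the locus, held 14 to 37 reads per library and overlaps no exon of SPRY4.

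DUSP4 libraries of targeted spheroids also lay above those of control spheroids in each condition. The group means were 1528 ± 25.2 against 1274 ± 31.1 CPM in droplets, 1112 ± 25.9 against 892 ± 78.3 CPM at 24 h, and 1093 ± 60.9 against 969 ± 49.3 CPM at 48 h. The log2 differences were 0.26 (SE 0.0584, edgeR adjusted p = 0.00280), 0.32 (SE 0.0585, adjusted p = 0.000333) and 0.17 (SE 0.0585, adjusted p = 0.0282). The difference at 48 h did not pass without control 48 h replicate 2 (adjusted p = 0.0592) or replicate 3 (0.156), without targeted 48 h replicate 1 (0.108), or with only these groups in the fit (0.0603).

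DUSP6 averaged 999.8 ± 26.1 CPM in targeted droplets against 709.5 ± 42.9 CPM for control, a log2 difference of 0.49 (SE 0.0646, edgeR adjusted p = 9.20e-06). In collagen the genotypes' libraries overlapped, and the differences of 0.14 at 24 h (95% interval 0.00 to 0.28, adjusted p = 0.0973) and 0.16 at 48 h (0.02 to 0.30, adjusted p = 0.0625) did not pass, although both did with library-size scaling (0.0234 and 0.0146). The response of DUSP6 to collagen differed between genotypes when tested directly, by -0.35 at 24 h (SE 0.0911, adjusted p = 0.0235) and -0.33 at 48 h (SE 0.0912, adjusted p = 0.0325), in targeted minus control spheroids. The 24 h call was lost without control droplet replicate 1 or 2, targeted droplet replicate 3 or targeted 24 h replicate 2, with adjusted p of 0.0503 to 0.0672. The 48 h call was lost without control droplet replicate 1 or 2, targeted droplet replicate 1 or 3, control 48 h replicate 1 or 2, or targeted 48 h replicate 3 (adjusted p = 0.0501 to 0.0883), and by library-size scaling (0.0501). DUSP6 was the single member of 10 that passed either test, against 7.41% of all genes at 24 h and 6.79% at 48 h. The same test for DUSP1 gave -0.44 at 24 h (SE 0.162, adjusted p = 0.109), which passed by DESeq2 (0.0274), without a low-count filter (0.000137) and without control 24 h replicate 3 (0.0430). For DUSP8 it gave 1.32 at 48 h (SE 0.454, adjusted p = 0.0772), which passed without a filter (0.0291) and without control droplet replicate 3 (0.0268).

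DUSP10 averaged 12.8 ± 0.447 CPM in targeted droplets against 16.2 ± 0.751 CPM for control, and 16.8 ± 0.498 against 22.5 ± 0.725 CPM at 24 h, without overlap. The log2 differences were -0.34 (SE 0.0769, edgeR adjusted p = 0.00298) and -0.42 (SE 0.0741, adjusted p = 0.000226). At 48 h the means were 17.1 ± 1.67 and 17.0 ± 0.569 CPM, a difference of 0.01 (95% interval -0.16 to 0.17). The change of the difference from droplets to 48 h was 0.35 (SE 0.108, adjusted p = 0.0551) and that from 24 h to 48 h was 0.43 (SE 0.106, adjusted p = 0.513), and neither passed, although the first did with library-size scaling (0.0371). For that last contrast edgeR called 0% of all genes, with 1107 genes at an unadjusted p under 0.05 (1 of them a member, DUSP10), and DESeq2 called 10 genes.

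DUSP8 was lower in targeted droplets by 1.01 on the log2 scale (SE 0.331, edgeR adjusted p = 0.0387), from 12 to 55 reads per library, with overlapping libraries. It did not pass without control droplet replicate 1 (adjusted p = 0.0862) or 2 (0.261), targeted droplet replicate 2 (0.0647) or 3 (0.208), targeted 24 h replicate 2 (0.0512), or with only the droplet groups in the fit (0.0793). DUSP1 averaged 27.9 ± 2.56 CPM in targeted droplets against 22.2 ± 2.59 CPM for control, without overlap. Its log2 difference of 0.33 did not pass by edgeR (adjusted p = 0.0820), but did by DESeq2 (0.0174), without a low-count filter (0.000103), with only the droplet groups in the fit (0.0320) and without control 24 h replicate 3 (0.0292). In collagen its differences were -0.11 at 24 h (95% interval -0.34 to 0.12) and -0.04 at 48 h (-0.27 to 0.19). DUSP2, DUSP5, SPRY2 and SPRED1 did not pass in any single condition. Over the 3 conditions their 95% intervals reached from -1.07 to 1.89 for DUSP2, -0.10 to 0.33 for DUSP5, -0.22 to 0.09 for SPRY2 and -0.20 to 0.26 for SPRED1. DUSP5 did pass at 48 h with library-size scaling (edgeR adjusted p = 0.0232), upper-quartile scaling (0.0343) and a replicate block (0.0147). It also passed there with only these groups in the fit (0.0492) and without control 24 h replicate 3 (0.0290). In droplets DUSP5 passed with a replicate block (0.0260) and without targeted droplet replicate 3 (0.0309). Averaged over conditions, DUSP5 was higher in targeted spheroids by 0.13 (SE 0.0400, adjusted p = 0.0113).

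**Figure D4:**
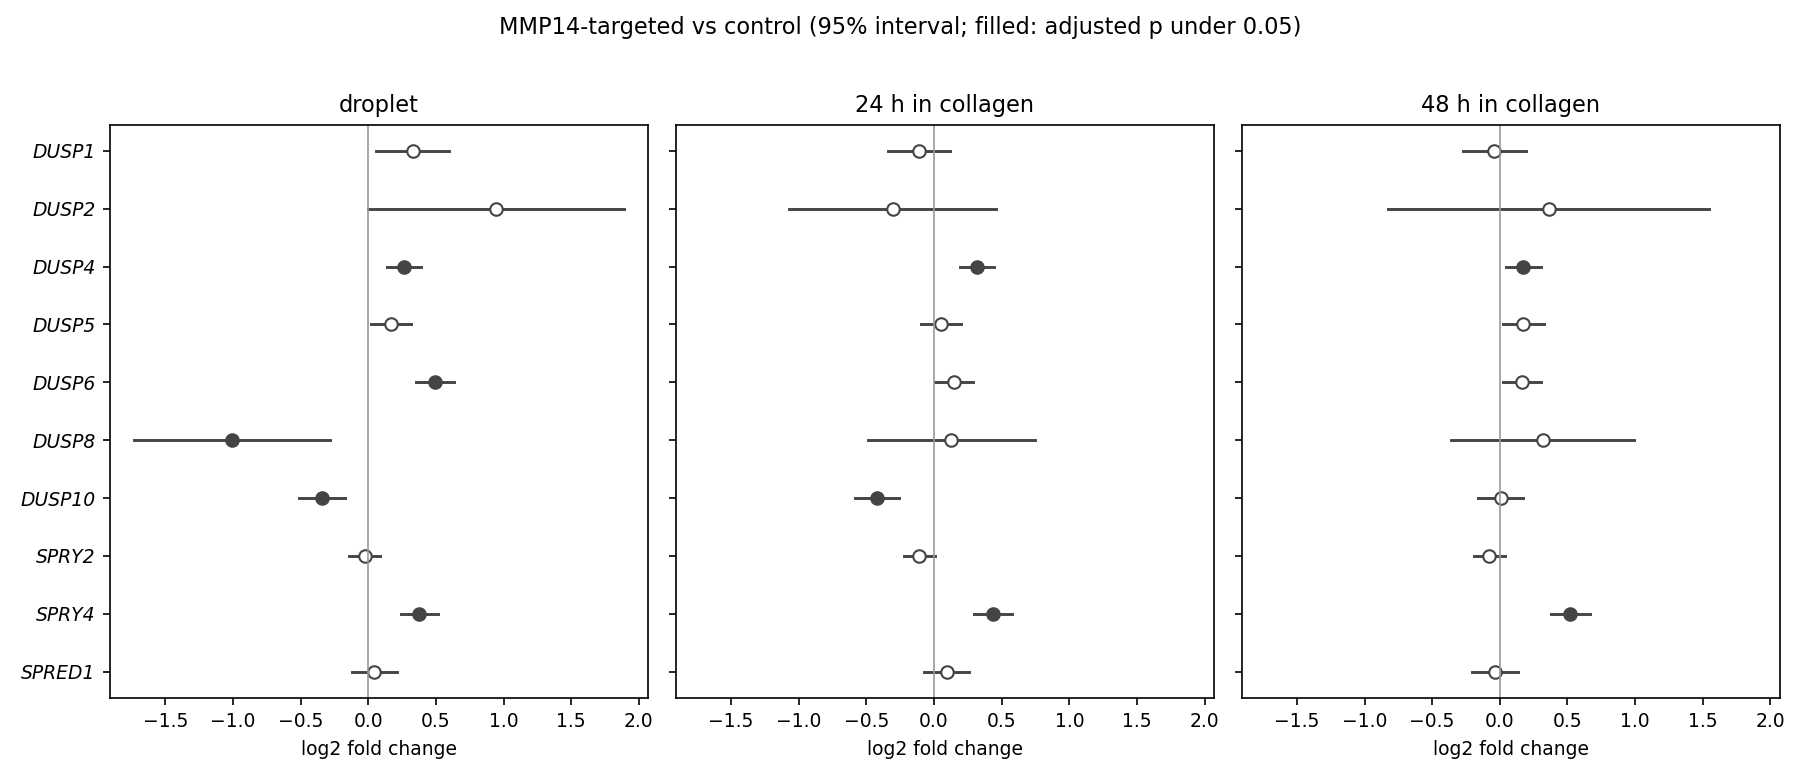
Log2 difference of each member between targeted and control spheroids in droplets, at 24 h and at 48 h in collagen, with 95% intervals built from edgeR's F statistic, filled where the edgeR adjusted p is under 0.05. SPRY4 at 0.38 to 0.52 and DUSP4 at 0.17 to 0.32 lie above 0 in all 3 panels, and DUSP6 is filled in droplets.

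The other members of these families did not move as one with those above. Of 7 listed genes (DUSP7, DUSP9, DUSP16, SPRY1, SPRY3, SPRED2 and SPRED3), 6 were tested, and DUSP9 was not, with a mean of at most 0.0802 CPM in any group. In control spheroids 1 was higher and 4 were lower in collagen at both times. In targeted spheroids 1 was higher and 3 were lower at both times. The share of all genes called in these comparisons was 56.5% and 55.2% in control and 51.1% and 49.4% in targeted spheroids at 24 h and 48 h. The riser was DUSP7, a cytoplasmic ERK phosphatase, with log2 fold changes of 0.49 at 24 h and 0.69 at 48 h in control and 0.73 and 0.77 in targeted spheroids. SPRED2 fell by 0.91 and 0.65 in control and by 0.88 and 0.83 in targeted spheroids. SPRY1 fell at 24 h by 0.98 in control and by 0.76 in targeted spheroids, where SPRY2 had risen. DUSP16, a JNK phosphatase, and SPRED3 passed as lower in control spheroids at both times, and SPRY3, at a mean of at most 1.88 CPM, passed as lower in targeted spheroids.

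Between genotypes, SPRY1 was higher in targeted spheroids at 24 h (0.46, SE 0.0969, edgeR adjusted p = 0.00158), SPRED3 at 48 h (0.32, SE 0.0887, adjusted p = 0.0101) and SPRY3 in droplets (0.79, SE 0.264, adjusted p = 0.0408). DUSP16 was lower in targeted droplets (-0.35, SE 0.0876, adjusted p = 0.00711).

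The kinases and adaptors that the members act on were mixed in direction. Of 21 genes of the ERK cascade, 4 were higher and 8 lower at 24 h in control spheroids, and 4 higher and 4 lower in targeted spheroids, where 56.5% and 51.1% of all genes were called. KSR1, a scaffold for RAF and MEK, fell by 0.89 and 0.69, and RPS6KA1, an ERK-activated kinase, rose by 0.56 and 0.49 on the log2 scale. Of 18 genes of the JNK and p38 cascades, 9 were higher and 6 lower in control, and 5 higher and 5 lower in targeted spheroids, with the stress-activated kinase gene MAP3K5 falling by 1.04 and 1.21. Of 11 other genes known as outputs of ERK signalling, 6 were higher and 3 lower in control at 24 h, and 5 higher and 3 lower in targeted spheroids. EGR1, an early transcription factor, rose by 4.15 and 3.89, MYC by 1.09 and 0.94, while ETV1, an ETS factor, fell by 1.10 and 0.82. The AP-1 subunit gene FOSL1 rose by 1.64 and 1.37 at 48 h.

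Between genotypes, the ERK cascade had 2 genes higher and 2 lower in droplets, 1 higher and 7 lower at 24 h, and 2 higher and 4 lower at 48 h. The stress cascades had 2 higher and 3 lower, 3 higher and 5 lower, and 1 higher and 6 lower in the same order. The ERK outputs had 3 higher and 1 lower, 4 higher and 4 lower, and 3 higher and 2 lower. All genes were called at 17.4%, 29.4% and 29.5% in these comparisons. MAPK14, the p38 alpha kinase that DUSP1 and DUSP10 act on, was lower in targeted spheroids by -0.27 in droplets, -0.40 at 24 h and -0.45 at 48 h on the log2 scale (SE 0.0428, 0.0428 and 0.0429). ETV4, an ETS factor downstream of ERK, was higher by 0.52 in droplets (SE 0.0716, edgeR adjusted p = 1.97e-05) and 0.36 at 24 h (SE 0.0726, adjusted p = 0.000834).

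Likeness of pattern was measured as the root mean square difference of centred group mean log2 CPM over the 6 groups. The genes nearest to DUSP1 were the early transcription factor gene EGR1 (0.282), the nuclear receptor gene NR4A1 (0.295) and ZFP36, which encodes an mRNA-decay factor (0.381). Those nearest to DUSP2 were NR4A2 (0.229), EGR3 (0.250) and the prostaglandin synthase gene PTGS2 (0.350). Those nearest to SPRY2 were INPP4B (0.038), FAM161A (0.044) and CCDC14 (0.050), and those nearest to SPRY4 were A4GALT (0.042), TBCK (0.048) and AKAP13 (0.054). DUSP4 was nearest to SLU7 (0.028), DUSP6 to TMSB15B (0.070), the nearest of DUSP10 was FBF1 (0.063) and that of SPRED1 was CD164 (0.018). Genes that move little have small distances by construction, and the span of SPRED1 over the groups, 0.37, was below the median of 0.63 over all genes.

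**Figure D5:**
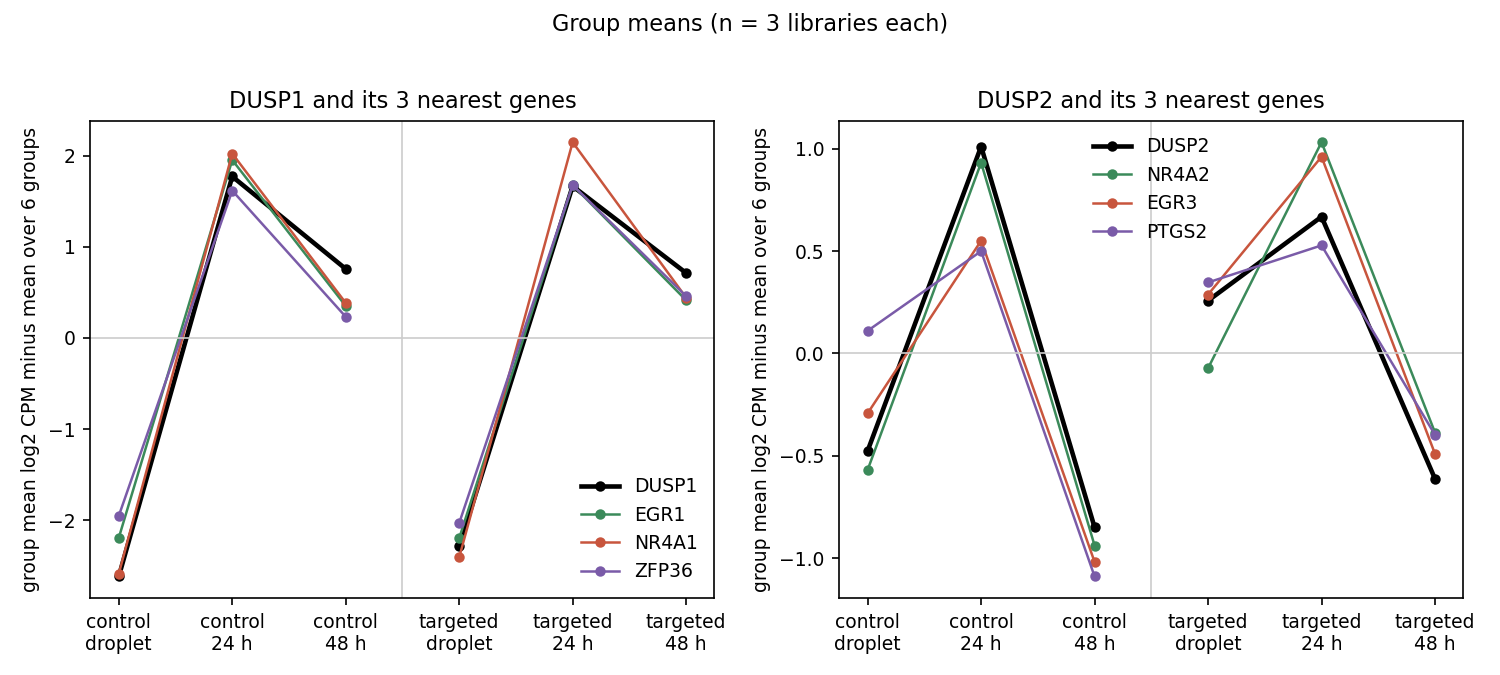
Group mean log2 CPM, centred on each gene's mean over the 6 groups (n = 3 libraries per group), for DUSP1 (left) and DUSP2 (right) in black with the 3 genes nearest to each in colour. EGR1, NR4A1 and ZFP36 share with DUSP1 the low droplet, high 24 h and intermediate 48 h levels in both genotypes.

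The members also share features of gene structure that the choice by symbol did not use. By GENCODE 29, 8 of the 10 have 4 exons or fewer in their longest coding transcript, against 20.6% of 13463 tested coding genes, and DUSP8 and SPRED1 have 7. Their median span is 14868 bp against 33334 bp, from 2275 bp for DUSP2 to 104924 bp for SPRED1. The AU-rich nonamer TTATTTATT, a motif of short-lived mRNAs, is found in the 3′ UTR of 3 members, at 2 places in DUSP1 and once each in DUSP4 and DUSP8, against 8.07% of tested coding genes. The pentamer ATTTA is found in 9 of the 10, with 24 copies in SPRED1 and 0 in DUSP5. It is common in tested coding genes too, with a median of 2 copies against 3.5 in members. The median 3′ UTR is 964 bp in tested coding genes and 1570 bp in members. On GRCh38, DUSP1 lies on chromosome 5 at 172768090 to 172771195 and SPRY4 on the same chromosome at 142310427 to 142326455, both on the minus strand. DUSP6 lies on chromosome 12 at 89347232 to 89353271, and SPRY2 on chromosome 13 at 80335976 to 80340951, both also on the minus strand.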

How the data were processed

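PolyA-selected RNA of the 18 spheroid samples was sequenced as 151 bp read pairs, per the labels' protocols. Per the submitters' processing notes, cutadapt 2.3, FastQC 0.11.8, STAR 2.7.8a, RSEM 1.3.3, MultiQC 1.7 and DESeq2 1.42.0 were used on GRCh38. The authors deposited RSEM expected counts per gene, which were already whole numbers. Neither the annotation release nor the strand setting is given in the sources used here. Of 62714 rows, 4 reporter rows were left out.

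The analysis used edgeR 4.0.16 (R 4.3.3): filterByExpr on the 6 groups with a minimum count of 10, TMM scaling, and 1 robust quasi-likelihood fit of 18 libraries with a coefficient per group (12 residual degrees of freedom). The 13 contrasts were each adjusted by Benjamini-Hochberg over 17030 genes, with a threshold of 0.05. The SE is the absolute log2 fold change over the square root of F, and 95% intervals use a t quantile at 12 degrees of freedom. These intervals can be wider than the tests imply. For DUSP2 between genotypes in droplets, the unadjusted edgeR p was 0.0405 and the interval was -0.001 to 1.888. Levels are CPM with TMM factors, and CPM per kb divides by GENCODE 29 exon length. Likeness used a prior count of 2 and genes of at least 5 CPM. Alternatives were DESeq2 1.42.0, other scalings, no filter, fewer groups, a replicate block and leaving out each library. The fitting script was tested on simulated data.

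The 10 members and the gene lists were chosen with earlier results of these data known. All members are named, and from each other list up to 4 genes by size of change past the threshold and at 1 CPM or more, of which the text prints some, and all genes of the related family. Promoter sequences come from RefSeq (GRCh38.p14).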

Additional observations from a re-analysis of the deposited data

Results flagged for a closer look

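The collagen response of DUSP6 differed between genotypes at both times by a direct test of the difference. In targeted minus control spheroids it was -0.35 on the log2 scale at 24 h (SE 0.0911, quasi-likelihood adjusted p = 0.0235 in edgeR) and -0.33 at 48 h (SE 0.0912, adjusted p = 0.0325). The tests share the droplet libraries, where DUSP6 was higher in targeted spheroids in 3 of 3 libraries than in any control library. Leaving out each of the 18 libraries in turn, the 24 h difference passed in 14 fits and the 48 h difference in 11, and the 48 h difference did not pass with library-size scaling (adjusted p = 0.0501).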

How the results depend on the processing

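Of 59 member results that passed, 50 passed with the same direction under each of the 24 alternatives that gave an adjusted p. Of the member results, 0 reversed. The replicate block raised the members called between genotypes at 48 h from 2 to 4 and those in the 48 h interaction from 1 to 2. With the block, the count of all genes called in that interaction went from 1156 to 1838. Same-numbered libraries deviated together with a median correlation of 0.007, and 7 of 18 correlated best with their own number. These values did not show pairing by number, but they cannot exclude it. Library-size and upper-quartile scaling each gave 4 in place of 2 between genotypes at 48 h, and upper-quartile scaling gave 2 in the 48 h interaction. Without a filter the interactions held 2 and 3 members, and DESeq2 gave 2 at 24 h. With only the groups compared, 3 in place of 5 members passed from 24 h to 48 h in targeted spheroids. Leaving out 1 library gave 1 to 3 members between genotypes at 48 h, 2 to 5 from 24 h to 48 h in targeted spheroids, 0 to 2 in the 24 h interaction and 0 to 3 in the 48 h interaction. The cause was not tested.

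Of all genes that passed between genotypes, 46.5% were higher at 24 h and 48.9% at 48 h, against 61.9% and 64.3% by library-size scaling and 60.6% and 60.1% by upper-quartile scaling. Averaged over conditions the share was 47.8% against 61.1% and 59.7%. By library-size scaling it was 44.2% in place of 54.5% from 24 h to 48 h in targeted spheroids (43.6% without a filter), 59% in place of 44.8% in the 24 h interaction and 73.9% in place of 59% in the 48 h interaction (48.7% by DESeq2).

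The count of all genes called moved by over 1.5 times in several contrasts. In droplets it was 2964, and 1959 without control droplet replicate 2. From 24 h to 48 h it was 2248 in control and 1349 without control 24 h replicate 2, and in targeted spheroids it was 648, 324 without targeted 24 h replicate 2, and 1101 without a filter. The 24 h interaction count was 1262, with 414 without control 24 h replicate 3 and 2046 without a filter, and the 48 h count was 1156, with 316 without control droplet replicate 1 and 2110 without a filter. For the interaction from 24 h to 48 h 240 genes were called without a filter in place of 0. Over the 24 alternatives, 11 member results had no adjusted p and were left out.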
